A study of Mus musculus with 48 samples.

Results

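Integrins are the adhesion receptors by which blood cells hold on to matrix and to other cells, and focal adhesion proteins tie them to the actin skeleton. The 41 genes described here are 13 integrin alpha subunits, 5 beta subunits, 9 genes that activate integrins or link them to actin, 9 kinases and scaffolds, 4 genes of the actin and zyxin family, and the integrin ligand ICAM1. They were chosen by name, with earlier results of these data known, and all 41 had a row among the 21025 gene models. RNA was measured in 30 mouse libraries (strain C57BL/6) of early B-lineage cells with or without Ikaros, a DNA-binding zinc finger protein that the Ikzf1 gene encodes. The other 18 of the 48 samples of the series are chromatin immunoprecipitation samples and were not analysed here.

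Deleted pro-B cells and c-Kit-high pro-B cells were Ikzf1(fl/-) Cd79a(Cre/+), and their controls were Ikzf1(fl/+) Cd79a(Cre/+). Rag2-null pro-B cells had the same Ikzf1 and Cd79a genotypes on a Rag2(-/-) background. Each of these 6 groups had 2 libraries. The controls therefore also carry the Cre recombinase, which is expressed from the B-lineage gene Cd79a, and a floxed allele beside a wild-type one. Titles of chromatin samples in the series write the Ikzf1 genotypes as ∆/+ and ∆/-. The floxed allele of the controls may therefore be deleted too, which was not tested in the RNA. A further 2 libraries came from wild-type pre-B cells, which carry no Cre. The knock-down cells were Ebf1(-/-) pre-pro-B cells, which lack a factor needed for B-lineage commitment. They carried the Ikzf1 hairpins Ik4056 or Ik2709, or the control constructs Ren713 or an empty vector, with 4 libraries each. Whether libraries of a group had separate animals or cultures as their source is not in the labels. The p-values therefore measure the spread between these libraries, which may be technical.

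An integrin is a pair of an alpha and a beta subunit. The beta1 subunit pairs with many alpha subunits and binds fibronectin, laminin or the vascular adhesion molecule VCAM1. The beta2 subunit pairs with alphaL, alphaM or alphaX and binds ICAM1 among other ligands. Talin and kindlin switch integrins on from inside the cell, vinculin and alpha-actinin hold them to actin, and focal adhesion kinase passes the signal on. Developing B cells use alpha4beta1 and VCAM1 to stay with bone marrow stromal cells.

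The implied depth was 10.4 to 12.5 M reads in pro-B libraries, 27.2 to 34.2 M in Rag2-null libraries, 8.7 and 15.6 M in pre-B libraries and 17.3 to 36.5 M in knock-down libraries. The c-Kit-high libraries had 9.3 and 9.5 M reads after deletion, against 8.9 and 2.3 M in controls, so the second control is the least precise library. IKZF1 RNA was 23.7 to 60.6 RPKM (reads scaled to gene model length in kilobases and to depth in M reads) with the 2 hairpins, against 106.1 to 145.3 RPKM with the control constructs. In the deletions it was 36.7 to 86.0 RPKM in deleted libraries and 56.2 to 123.8 RPKM in controls, a value over the whole gene model that does not resolve a deleted part. The summed level of 16 B-lineage markers was 3113 to 7848 RPKM in every pro-B and pre-B library and 47.9 to 141.7 RPKM in the Ebf1(-/-) libraries. A summed level of 12 neutrophil markers stood apart in pre-B libraries, at 7992 and 8325 RPKM, with 12 of 12 markers averaging at least 1 RPKM.

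Of the 41 genes, 31 were tested in both the deletions and the knock-down. Of these 31, 4 were called in the same direction in all 3 deletions and in the knock-down. ACTN1, VCL and ITGB1 were higher, beside 1.84% of the gene models tested in both fits, and ICAM1 was lower, beside 0.374%. The RefSeq promoter windows of 3 of them (GRCm38.p6, 250 bases before to 50 after the start) are shown because these genes were called in all 4 comparisons, ICAM1 in the opposite direction to the others, and their windows hold motifs searched for here. Capitals mark TGGGAA, the core bound by Ikaros, on either strand (TTCCCA where it lies on the other) in ACTN1 and VCL, the CArG box of serum response factor in VCL, and GGAANNTCC, a form of the NF-kB site, in ICAM1. ACTN1 lies at chr12:80260314-80260613 on the minus strand, VCL at chr14:20929148-20929447 on the plus strand and ICAM1 at chr9:21015690-21015989 on the plus strand.
ACTN1: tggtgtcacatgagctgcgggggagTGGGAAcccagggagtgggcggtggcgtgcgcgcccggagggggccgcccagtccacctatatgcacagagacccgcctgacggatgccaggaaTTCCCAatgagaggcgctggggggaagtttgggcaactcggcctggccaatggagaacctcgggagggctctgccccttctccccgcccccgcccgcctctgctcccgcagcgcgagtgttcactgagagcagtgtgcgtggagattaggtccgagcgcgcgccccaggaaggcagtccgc
VCL: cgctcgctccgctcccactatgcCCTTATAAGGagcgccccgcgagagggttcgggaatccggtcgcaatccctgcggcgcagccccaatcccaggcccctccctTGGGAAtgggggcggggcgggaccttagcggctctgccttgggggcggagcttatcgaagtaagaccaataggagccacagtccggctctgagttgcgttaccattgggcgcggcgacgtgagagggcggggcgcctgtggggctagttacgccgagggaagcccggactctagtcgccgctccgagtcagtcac
ICAM1: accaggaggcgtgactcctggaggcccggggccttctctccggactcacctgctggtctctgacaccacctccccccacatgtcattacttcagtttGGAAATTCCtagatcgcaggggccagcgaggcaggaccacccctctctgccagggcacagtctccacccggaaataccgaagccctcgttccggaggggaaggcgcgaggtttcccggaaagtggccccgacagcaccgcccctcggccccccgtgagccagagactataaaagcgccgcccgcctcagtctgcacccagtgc

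Windows were found for 30 of the 41 genes, 37 windows in all, and both strands were searched. TGGGAA was in 8 of the 37 windows (21.6%), against 25.6% of all 32851 windows of that length. The CArG box was in 1 of 37 (2.7%) against 1.63% of all windows, and GGAANNTCC was in 1 of 37 (2.7%) against 4.26%. The window of ITGB1 held none of the 3 motifs. A match is a string of letters and was not tested as a binding site.

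Each comparison was tested on log2(RPKM + 1) across all gene models with at least 1 RPKM in 2 libraries, and called means an adjusted p under 0.05 (limma, Benjamini-Hochberg). That admitted 38 of the 41 genes to the pro-B and pre-B fit, ITGA1 through the deleted c-Kit-high libraries alone, and 32 to the knock-down fit, CTTN through the Ik4056 libraries alone. In pro-B cells, deletion was followed by 9 genes called higher, beside 13.5% of all gene models, and 8 called lower, beside 9.89%. In c-Kit-high cells 10 were called higher, beside 11.6% of all gene models, and 5 lower, beside 5.6%. Rag2-null cells had the most, with 20 called higher, beside 15.5%, and 4 called lower, beside 6.84%. In the knock-down 12 of 32 were called higher, beside 13.4%, and 2 lower, beside 6.04%. The median log2 difference of the tested members was 0.45 in Rag2-null cells, 0.25 in c-Kit-high cells, -0.05 in pro-B cells and 0.24 in the knock-down, against 0.06, 0.03, 0.03 and 0.01 over all gene models. After median-ratio scaling the pro-B split was 7 higher and 9 lower. In all 3 deletions, 6 of the 38 genes were called higher (ACTN1, VCL, ITGB1, ITGA3, ITGA9 and PTK2), beside 3.85% of all gene models, and 3 lower (ICAM1, ITGA4 and ITGB2), beside 1.47%. ITGA3 and ITGA9 did not pass the filter of the knock-down fit and were not tested there. The 10 genes called higher in c-Kit-high cells include ITGA1, which entered the fit only through the group where it is high and so had to differ.

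**Figure D1:**
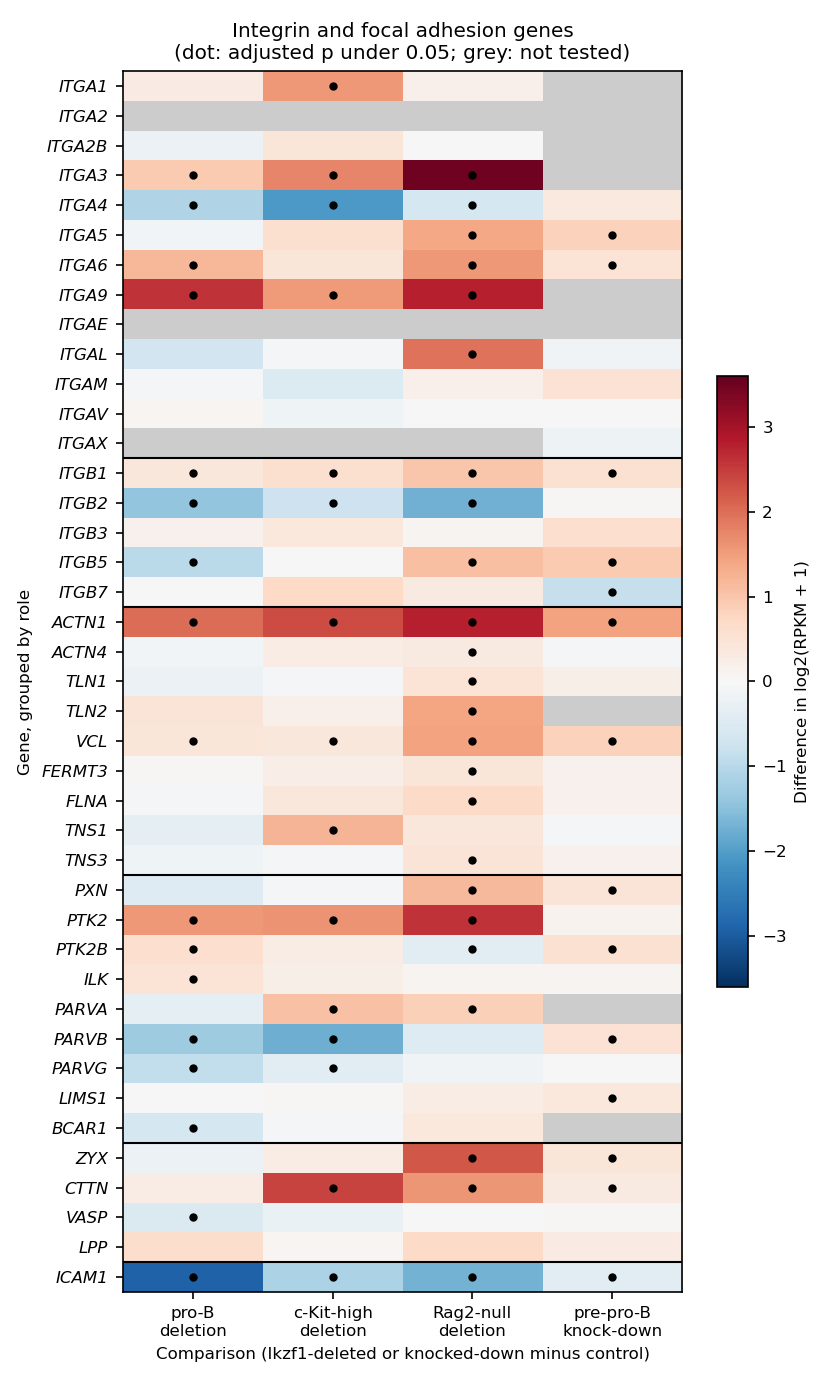
Difference in log2(RPKM + 1), deleted or knocked down minus control, for the 41 genes (rows, grouped by role) in 4 comparisons (columns), with a dot where the adjusted p was under 0.05 and grey where the gene was not tested. ACTN1 is red and ICAM1 blue in every column, while ITGB5, PTK2B and PARVB carry dots of both colours.

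ACTN1, an alpha-actinin that crosslinks actin and binds beta integrin tails, was the most strongly raised actin linker in each comparison. It stood at 71.9 and 60.6 RPKM in deleted pro-B libraries, against 14.5 and 16.8 RPKM in controls, a log2 difference of 2.01 ± 0.17 (SE, n = 2 each, limma adjusted p = 4.17e-06). In c-Kit-high libraries it had 45.8 and 46.2 RPKM after deletion and 8.46 and 7.94 RPKM in controls (log2 2.35). Rag2-null libraries held 74.1 and 81.6 RPKM after deletion and 12.9 and 8.32 RPKM in controls (log2 2.79). Deleted libraries of all 3 settings lay well above every control library, and these calls held under every alternative and with each library left out. The paralog ACTN4 was far more abundant, at 165 to 186 RPKM in deleted libraries and 128 to 192 RPKM in controls. ACTN4 was called in the Rag2-null deletion alone among these 4 comparisons, by a log2 of 0.33 that was lost without any one of the 4 libraries.

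VCL encodes vinculin, which binds talin and actin under tension. Its levels were 32.7 and 38.6 RPKM in deleted Rag2-null libraries, against 13.1 and 11.9 RPKM in controls (log2 1.44 ± 0.12, n = 2 each, limma adjusted p = 4.82e-06). The rise was smaller in pro-B cells, where deleted libraries had 24.4 and 22.7 RPKM and controls 17.4 and 17.1 RPKM (log2 0.42). In c-Kit-high cells they had 20.4 and 22.3 RPKM, against 16.7 and 15.2 RPKM (log2 0.40). Groups did not overlap in any of the 3 settings, which was so for every called member in the deletions and adds nothing to the calls. The pro-B call was lost without each of its 4 libraries (log2 0.37 to 0.48), and the c-Kit-high call without either deleted library (log2 0.34 and 0.46) or control replicate 2 (log2 0.33); median-ratio scaling ended both.

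The other linkers moved mainly in the Rag2-null deletion, where 8 of the 9 activators and actin linkers were called higher, beside 15.5% of all gene models. Of the 7 stromal cell markers tested, 6 were also called higher there (median log2 1.94), and the part of stromal RNA was not tested. TLN2, a talin of low level here, had 2.47 and 5.21 RPKM in deleted Rag2-null libraries, against 0.654 and 0.831 RPKM in controls (log2 1.42). TLN1, the main talin of blood cells, had 74.3 and 84.3 RPKM there, against 61.1 and 52.3 RPKM (log2 0.48). FLNA, the actin crosslinker filamin A, had 143 and 129 RPKM, against 66.7 and 105 RPKM (log2 0.69), and its call was lost without control replicate 1 (log2 0.37) or deleted replicate 1 (log2 0.61). FERMT3, the kindlin of blood cells that activates integrins with talin, was called at a log2 of 0.44, and TNS3, a tensin, at 0.45. These calls and that of TLN1 were each lost without at least 1 library (log2 0.36 to 0.37 for FERMT3, 0.33 to 0.51 for TNS3 and 0.37 to 0.39 for TLN1). TNS1, another tensin, was not called there but rose in c-Kit-high cells, with 10.2 and 8.41 RPKM after deletion and 3.42 and 3.37 RPKM in controls (log2 1.22).

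ITGB1, the beta1 subunit, was the most abundant integrin gene in all deleted pro-B groups. Deleted Rag2-null libraries held 84.8 and 86.1 RPKM, against 44.0 and 40.2 RPKM in controls (log2 1.00 ± 0.13, n = 2 each, limma adjusted p = 0.000148). Deleted pro-B libraries held 86.9 and 94.5 RPKM, against 67.7 and 68.0 RPKM (log2 0.41), and deleted c-Kit-high libraries 76.6 and 76.0 RPKM, against 53.8 and 48.7 RPKM (log2 0.57). The groups were separate in each setting, as for every called member in the deletions. The pro-B call was lost without each of its 4 libraries (log2 0.35 to 0.47) and after median-ratio scaling (log2 0.33), and the c-Kit-high call without deleted replicate 1 (log2 0.56) or control replicate 2 (log2 0.50).

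The alpha partners of beta1 did not move as a group. ITGA4, which pairs with beta1 or beta7 and binds VCAM1 and fibronectin, fell to 11.5 and 16.4 RPKM in deleted c-Kit-high libraries, against 57.5 and 64.6 RPKM in controls (log2 -2.07 ± 0.19, limma adjusted p = 1.34e-05, n = 2 each). ITGA4 was 6.02 and 7.26 RPKM in deleted pro-B libraries, against 16.2 and 14.2 RPKM in controls (log2 -1.08). Rag2-null libraries held 4.46 and 5.86 RPKM of ITGA4 after deletion, against 8.51 and 8.65 RPKM in controls (log2 -0.65), a call lost without either control library or deleted replicate 1. ITGA6, a laminin receptor subunit, went the other way, with 18.9 and 18.9 RPKM in deleted Rag2-null libraries and 6.42 and 5.15 RPKM in controls (log2 1.56). Deleted pro-B libraries had 11.6 and 15.9 RPKM of ITGA6, against 5.5 and 5.22 RPKM (log2 1.20), while c-Kit-high libraries had 14.1 and 13.2 RPKM against 10.7 and 8.79 RPKM, which was not called (limma adjusted p = 0.0842).

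ITGA9 and ITGA3 were low in pro-B and Rag2-null controls and higher after deletion. ITGA9, which pairs with beta1 and also binds VCAM1, was at 6.66 and 6.18 RPKM in deleted pro-B libraries, against 0.231 and 0.192 RPKM in controls (log2 2.61 ± 0.21, limma adjusted p = 2.99e-06, n = 2 each). Deleted Rag2-null libraries held 6.36 and 7.90 RPKM of ITGA9, against 0.198 and 0.120 RPKM (log2 2.80), and deleted c-Kit-high libraries 9.87 and 8.72 RPKM, against 1.79 and 3.46 RPKM (log2 1.54). All 6 deleted libraries had 6.18 to 9.87 RPKM of ITGA9, above all 6 controls. ITGA3, a laminin receptor subunit, reached 17.8 and 13.1 RPKM in deleted Rag2-null libraries, against 0.804 and 0.130 RPKM in controls (log2 3.51, the largest rise of any member in the 4 comparisons). It had 8.10 and 7.49 RPKM in deleted c-Kit-high libraries, against 1.59 and 1.59 RPKM (log2 1.76), and 3.44 and 1.91 RPKM in deleted pro-B libraries, against 0.691 and 1.04 RPKM (log2 0.95). The pro-B call of ITGA3 was lost without deleted replicate 1 (log2 0.65) or control replicate 1 (log2 0.82). ITGA5, the fibronectin receptor subunit, was called in Rag2-null cells, with 36.8 and 36.1 RPKM after deletion and 17.6 and 9.96 RPKM in controls (log2 1.39).

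**Figure D2:**
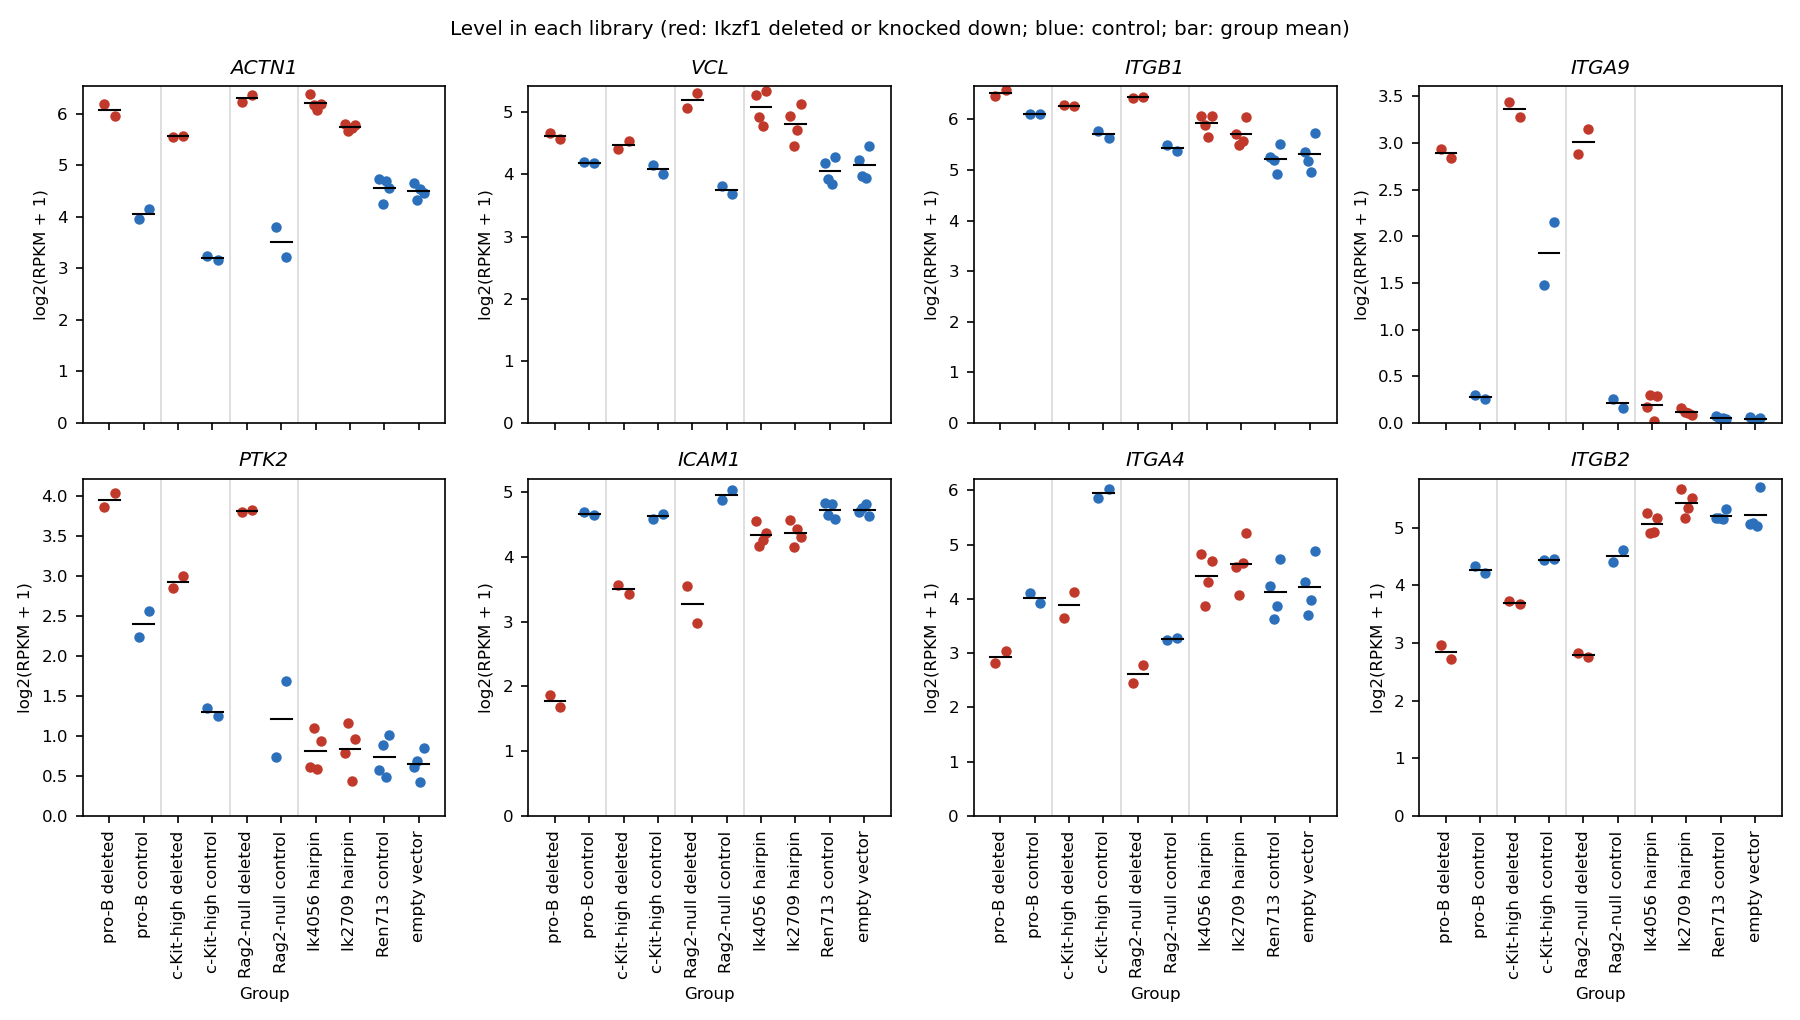
Level of 8 genes in each library, as log2(RPKM + 1), with deleted or hairpin groups in red to the left of their controls in blue and a bar at the group mean. ACTN1, VCL and ITGB1 have higher means in the red groups of all 4 settings, and ITGA9 and PTK2 in the 3 deletions. ITGA4 and ITGB2 are lower in the 3 deletions. The hairpin libraries of VCL, ITGB1, ITGA4 and ITGB2 overlap their controls.

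On the beta2 side both the receptor gene and the ligand gene were lower after deletion. ITGB2 was 6.82 and 5.61 RPKM in deleted pro-B libraries, against 19.3 and 17.5 RPKM in controls (log2 -1.43 ± 0.13, n = 2 each, limma adjusted p = 6.89e-06). Deleted Rag2-null libraries held 6.07 and 5.74 RPKM, against 20.2 and 23.5 RPKM (log2 -1.72), and deleted c-Kit-high libraries 12.2 and 11.7 RPKM, against 20.6 and 21.0 RPKM (log2 -0.75). The calls held under every alternative. ICAM1, the ligand of beta2 integrins, showed the largest fall of any member: 2.63 and 2.19 RPKM in deleted pro-B libraries, against 24.9 and 24.1 RPKM in controls (log2 -2.90 ± 0.17, limma adjusted p = 3.36e-07). It was 10.8 and 6.93 RPKM in deleted Rag2-null libraries, against 28.5 and 31.9 RPKM (log2 -1.69), and 10.9 and 9.78 RPKM in deleted c-Kit-high libraries, against 23.0 and 24.5 RPKM (log2 -1.13). Deleted levels of ICAM1 spanned 2.19 to 10.9 RPKM over the 3 settings and control levels 23.0 to 31.9 RPKM, without overlap.

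ITGAL, the alphaL partner of beta2, did not follow it. Deleted Rag2-null libraries held 46.2 and 37.0 RPKM, against 7.47 and 13.3 RPKM in controls (log2 1.95 ± 0.23, n = 2 each, limma adjusted p = 8.24e-05), while beta2 fell there. In pro-B cells ITGAL was 11.5 and 7.42 RPKM after deletion, against 15.9 and 15.1 RPKM, and was not called (limma adjusted p = 0.0527). The c-Kit-high libraries had 21.2 and 23.3 RPKM of it after deletion and 24.9 and 21.6 RPKM in controls. ITGAM, the alphaM subunit of myeloid cells, was called in none of the 3 deletions, with 11.01 and 11.4 RPKM in deleted c-Kit-high libraries and 15.6 and 16.6 RPKM in controls, and 0.292 to 2.77 RPKM in every pro-B and Rag2-null library. The 2 Rag2-null controls differed most, at 2.77 and 0.292 RPKM. In c-Kit-high libraries the neutrophil markers summed to 142.4 to 350.2 RPKM after deletion and 115.7 to 713.2 RPKM in controls. Their part in the values of ITGAM and ITGB2 was not tested. ITGAX, the alphaX subunit of dendritic cells, stayed at or below 0.832 RPKM in all pro-B and pre-B libraries and was not tested there.

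The remaining beta subunits were low in pro-B cells. ITGB5, which pairs with alphaV, was called in opposite directions: 3.90 and 3.55 RPKM in deleted Rag2-null libraries, against 1.39 and 1.08 RPKM in controls (log2 1.08 ± 0.19, limma adjusted p = 0.0017, n = 2 each), and 1.67 and 1.19 RPKM in deleted pro-B libraries, against 2.97 and 4.54 RPKM (log2 -0.96). A list of 10 stromal cell markers moved the same way, with a summed level of 66.9 to 96.6 RPKM in deleted Rag2-null libraries, against 7.63 to 20.5 RPKM in controls, and 32.1 to 33.3 RPKM in deleted pro-B libraries, against 76.3 to 119.8 RPKM. The stromal genes LUM and DCN were at 0 in all of these libraries, and COL1A1 was at 1.76 to 25.3 RPKM; the part of stromal RNA in these results was not tested. ITGB3 and ITGAV, which form the vitronectin receptor, were not called in any deletion, at 0.386 to 2.38 RPKM and 3.06 to 8.42 RPKM over the 12 libraries. ITGB7 was at or below 3.01 RPKM in the same libraries and was not called.

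Focal adhesion kinase, encoded by PTK2, was the kinase that moved most. Deleted pro-B libraries had 13.5 and 15.4 RPKM, against 3.70 and 4.88 RPKM in controls (log2 1.55 ± 0.25, limma adjusted p = 0.000699, n = 2 each). Deleted Rag2-null libraries had 12.9 and 13.2 RPKM, against 0.660 and 2.22 RPKM (log2 2.61), and deleted c-Kit-high libraries 6.22 and 6.99 RPKM, against 1.54 and 1.38 RPKM (log2 1.63). Its relative PTK2B (PYK2), the more abundant of the 2 in every library, split by setting. PTK2B was 50.7 and 51.7 RPKM in deleted pro-B libraries, against 32.5 and 33.7 RPKM (log2 0.62), and 27.7 and 29.4 RPKM in deleted Rag2-null libraries, against 37.2 and 39.6 RPKM (log2 -0.42). The Rag2-null call was lost without control replicate 2 or either deleted library (log2 -0.37 to -0.46).

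Parvins link integrin-linked kinase to actin, and here the forms differed. PARVB was 4.19 and 3.77 RPKM in deleted c-Kit-high libraries, against 14.7 and 16.9 RPKM in controls (log2 -1.75 ± 0.42, limma adjusted p = 0.0133, n = 2 each), and 0.891 and 0.740 RPKM in deleted pro-B libraries, against 3.07 and 3.71 RPKM (log2 -1.27). The pro-B call was lost without any 1 of the 4 libraries (log2 -1.17 to -1.38), and the c-Kit-high call without either deleted library (log2 -1.81 and -1.69) or control replicate 2 (log2 -1.65). In Rag2-null cells the controls of PARVB were 9.56 and 2.01 RPKM, either side of the deleted libraries at 2.67 and 3.50 RPKM. PARVG, the parvin of blood cells, fell in pro-B cells to 92.2 and 70.9 RPKM, against 154 and 147 RPKM (log2 -0.88). It was also called lower in c-Kit-high cells, at 66.6 and 68.6 RPKM, against 87.8 and 91.7 RPKM (log2 -0.40). That call was lost under 7 of 14 alternatives. PARVA was called higher in c-Kit-high cells, at 1.00 and 1.55 RPKM after deletion and 0.0931 and 0.0969 RPKM in controls (log2 1.05), and in Rag2-null cells (log2 0.85), where the stromal list was higher too; both calls were lost without at least 1 library and after quantile normalization (log2 0.59 and 0.56).

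Of the other scaffolds, PXN (paxillin) rose in Rag2-null cells alone among the 3 deletions, with 165 and 132 RPKM after deletion and 84.9 and 49.7 RPKM in controls (log2 1.17), a call that was lost when the fit held the compared libraries only. ILK, integrin-linked kinase, was called in pro-B cells at 65.9 and 52.3 RPKM, against 41.7 and 40.7 RPKM (log2 0.50); the call was lost without deleted replicate 1 (log2 0.34) or either control library (log2 0.48 and 0.52). BCAR1 (p130Cas) was called lower there at 0.770 and 0.338 RPKM, against 0.962 and 1.86 RPKM in controls (log2 -0.62), beside the lower stromal list, and the call was lost without deleted replicate 2 (log2 -0.42). LIMS1 (PINCH) was not called in any deletion, at 16.6 to 21.2 RPKM in all 12 libraries.

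In the actin and zyxin family, CTTN and ZYX were both called higher in Rag2-null cells, and CTTN also in c-Kit-high cells. CTTN encodes cortactin, an activator of branched actin. It was at 8.30 and 7.33 RPKM in deleted c-Kit-high libraries, against 0.545 and 0.710 RPKM in controls (log2 2.44 ± 0.21, n = 2 each, limma adjusted p = 7.29e-06). Rag2-null libraries had 4.43 and 3.09 RPKM of it, against 0.517 and 0.599 RPKM (log2 1.60), beside the higher stromal list named above. In the c-Kit-high libraries that list summed to 3.75 to 4.74 RPKM after deletion and 1.04 to 7.98 RPKM in controls. ZYX (zyxin), which gathers at strained actin, was 105 and 60.1 RPKM in deleted Rag2-null libraries, against 18.8 and 13.5 RPKM (log2 2.25), and was not called in the other deletions. VASP, an actin elongation factor, was called lower in pro-B cells at 91.2 and 97.5 RPKM, against 129 and 140 RPKM (log2 -0.51), a call lost without deleted replicate 1 (log2 -0.46) or control replicate 2 (log2 -0.45). LPP, a relative of zyxin, was called in none of the 4 comparisons.

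Markers of other cells also moved with deletion. The eosinophil gene PRG3 was 335.1 and 335.5 RPKM in deleted Rag2-null libraries, nearly all of the 337.3 to 337.7 RPKM that 9 mast cell, basophil or eosinophil markers summed to, against 2.14 to 6.59 RPKM in controls; 6 of the 9 were at 0 in the deleted libraries. The same 9 summed to 32.5 to 45.95 RPKM in deleted pro-B libraries, against 1.16 to 2.32 RPKM in controls, and to 162.2 to 176.6 RPKM in deleted c-Kit-high libraries, against 39.0 to 40.7 RPKM. PRG3 was 45.95 and 32.4 RPKM of these sums in deleted pro-B libraries and 168.8 and 155.4 RPKM in deleted c-Kit-high libraries. The 9 endothelial markers summed to 147.7 to 217.1 RPKM in deleted Rag2-null libraries, against 32.0 to 55.6 RPKM in controls. CDH5 made up 106 and 63.4 RPKM of this, while TEK and CLDN5 were at or below 0.0209 RPKM. That list was 47.1 to 53.4 RPKM in deleted pro-B libraries, against 38.0 to 39.7 RPKM, and 162.0 to 221.7 RPKM in deleted c-Kit-high libraries, against 92.8 to 130.2 RPKM. CDH5 was 104.5 and 67.0 RPKM in deleted c-Kit-high libraries, against 0.239 and 0.433 RPKM in controls. Of the 6 endothelial markers tested, 1 was called higher and 0 lower in c-Kit-high cells, beside 11.6% and 5.6% (median log2 -0.08). In pro-B cells 2 were higher and 0 lower, beside 13.5% and 9.89% (median log2 -0.02). The part of these cells in the members' values was not tested. In Rag2-null libraries B-lineage markers summed to 5940 to 6812 RPKM after deletion, against 5608 to 7652 RPKM. In pro-B libraries they summed to 3113 to 3437 RPKM after deletion, against 3885 to 3897 RPKM. In c-Kit-high libraries the sums were 4869 to 5968 RPKM after deletion and 6171 to 7848 RPKM in controls. Of these 16 markers, 2 were called higher and 9 lower in pro-B cells, beside 13.5% and 9.89% of all gene models. In c-Kit-high cells 1 was higher and 4 lower, beside 11.6% and 5.6%, and in Rag2-null cells 1 and 1, beside 15.5% and 6.84%. In bulk RNA a change in the share of a cell type and a change of RNA per cell cannot be told apart.

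The deletion effect was compared between settings to ask whether it depends on the Rag2-null background or the c-Kit-high fraction. Each setting has its own library numbers, 11598 to 11601 in pro-B and 15260 to 15263 in Rag2-null cells, and depth differs too. A dependence on setting therefore cannot be told from one on library set or depth. The c-Kit-high numbers were 11597 and 12072 after deletion and 12073 and 12806 in controls, which do not form a run of consecutive numbers. The Rag2-null effect was higher than the pro-B effect for 14 of 38 genes, beside 8.54% of all gene models, and lower for 1, beside 4.55%. The stromal markers had the same difference of effects called higher for 7 of 7 tested (median log2 2.73) and the endothelial markers for 3 of 6 (median log2 1.31); their part was not tested. The largest gaps were at ITGAL (log2 2.63 ± 0.33, limma adjusted p = 0.000291), ITGA3 (2.56), ZYX (2.47), ITGB5 (2.04), PXN (1.63) and ITGA5 (1.5). PTK2B was the 1 gene with the opposite sign (-1.03), since it rose in pro-B cells and fell in Rag2-null cells. ICAM1 (1.21) was among the 14 because it fell less in Rag2-null cells. Of the 15 calls, 9 held under every alternative; that of ACTN1 (0.78, limma adjusted p = 0.0497) was lost under 14 of 17. The c-Kit-high effect was higher than the pro-B effect for 6 genes, beside 4.54%, and lower for 1, beside 2.16%; quantile normalization gave a split of 3 and 1, and median-ratio scaling 6 and 2. Stromal markers were higher in this difference for 3 of 7, and ITGA1 is among the 6 members. CTTN (2.18) and ICAM1 (1.77) held under every alternative. Both differences use the same pro-B libraries.

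**Figure D3:**
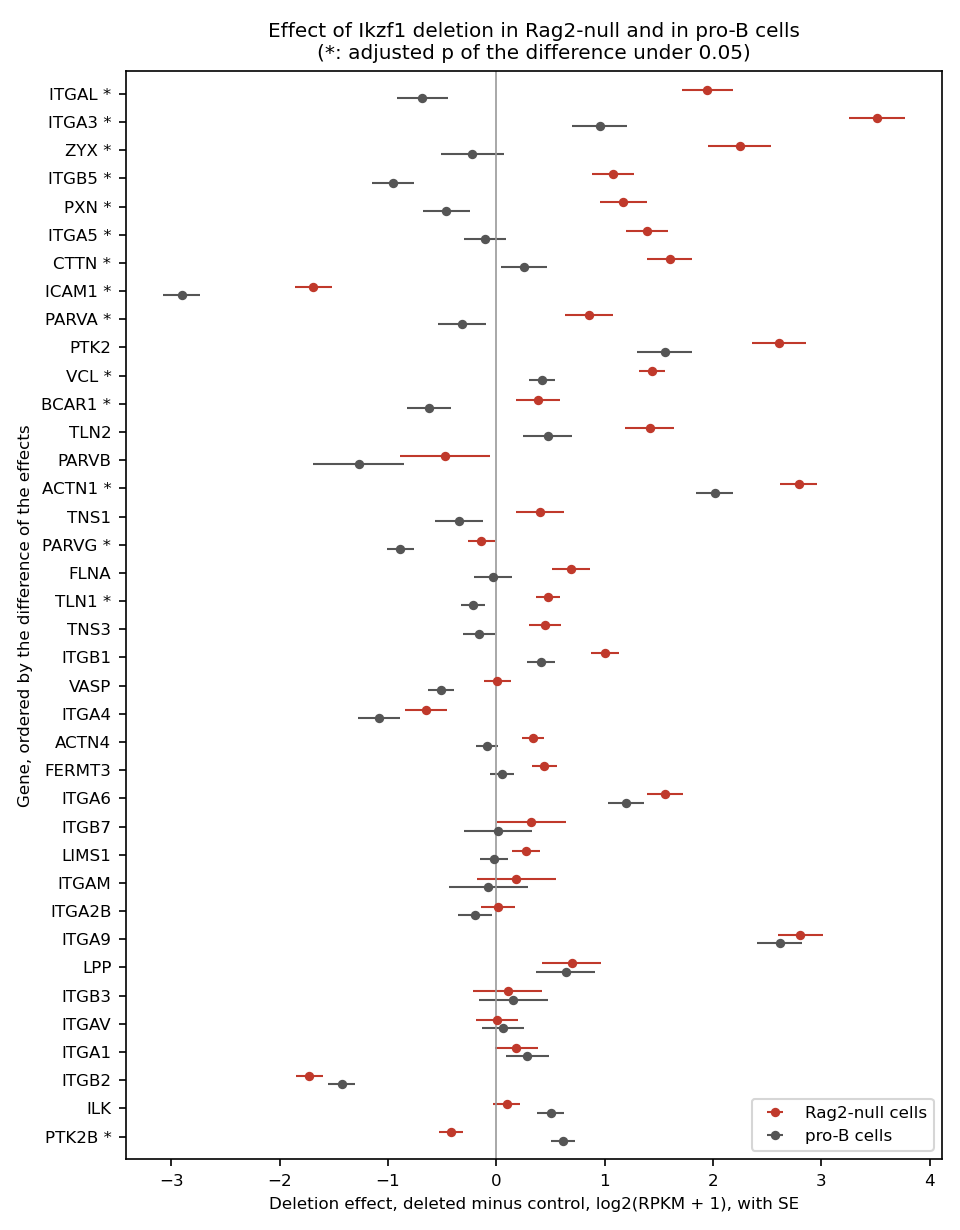
Deletion effect with its SE in Rag2-null cells (red, upper) and pro-B cells (grey, lower) for 38 genes, in log2(RPKM + 1), ordered by the difference of the effects, with an asterisk where that difference was called. ITGAL, PXN, ZYX and ITGB5 have the 2 effects on opposite sides of 0, while ITGA9 and ITGB2 have them close together.

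The knock-down asked whether lowering Ikzf1 RNA in cells that lack Ebf1 moves the same genes. ACTN1 stood at 81.9, 70.7, 66.4 and 71.9 RPKM with Ik4056 and 54.6, 49.3, 51.5 and 53.5 RPKM with Ik2709. It was at 25.5, 18.0, 24.7 and 22.6 RPKM with Ren713 and 24.0, 19.0, 22.2 and 21.0 RPKM with the empty vector. All 8 hairpin libraries exceeded all 8 control libraries (log2 1.44 ± 0.08, limma adjusted p = 2.48e-09). ICAM1 was 22.6, 16.9, 18.2 and 19.8 RPKM with Ik4056 and 22.7, 16.9, 20.6 and 18.8 RPKM with Ik2709, against 23.0 to 27.7 RPKM in the 8 control libraries. All 8 hairpin libraries were below all 8 control libraries (log2 -0.37 ± 0.08, limma adjusted p = 0.0025). VCL had 20.9 to 39.6 RPKM with hairpins and 13.5 to 21.0 RPKM with control constructs (log2 0.84), and ITGB1 44.2 to 66.1 RPKM and 29.2 to 52.3 RPKM (log2 0.55).

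ITGA5 rose to 11.7 to 19.9 RPKM with hairpins, against 7.34 to 8.77 RPKM (log2 0.83, limma adjusted p = 6.87e-06), with no overlap, and ITGA6 was higher by a log2 of 0.50. ITGB7, which pairs with alpha4 or alphaE in gut homing, was the other gene called lower, at 27.8 to 65.7 RPKM with hairpins and 54.9 to 95.4 RPKM with control constructs (log2 -0.84). ITGA4 (log2 0.36) and ITGB2 (log2 0.04) were not called, and PTK2 was at or below 1.24 RPKM in all 16 libraries. With the replicate block ITGA4 was called higher (limma adjusted p = 0.000389) and ITGB2 was not called. ZYX (log2 0.45), PXN (0.45), PTK2B (0.54), PARVB (0.53), ITGB5 (0.94), LIMS1 (0.39) and CTTN (0.32) made up the rest of the 12 higher, CTTN having entered the fit through the Ik4056 libraries alone. Of the 14 called genes, 5 had hairpin and control libraries that did not overlap, beside 36.2% of all called gene models. The calls of LIMS1 and CTTN were lost without some single libraries (log2 0.34 to 0.40 for LIMS1 and 0.26 to 0.32 for CTTN) and that of CTTN also after quantile normalization (log2 0.14). The replicate block by run of library numbers called 24 members, 21 higher and 3 lower, beside 51.9% of all gene models. The added calls were ITGA4, ITGAM, ITGB3, TLN1, ILK, FERMT3, FLNA, TNS3 and LPP as higher and ITGAX as lower.

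The 2 hairpins did not act alike on every gene. With Ik4056 set against Ik2709, 3 genes were called higher, beside 2.62% of all gene models, and 1 lower, beside 0.707%. PARVB was 4.51, 3.70, 2.68 and 4.49 RPKM with Ik4056 and 1.20, 1.45, 1.05 and 1.53 RPKM with Ik2709 (log2 1.06 ± 0.16, limma adjusted p = 0.00131, n = 4 each), and 0.813 to 1.94 RPKM in controls. Its level with Ik2709 lay within the control range. ITGB5 was 7.70, 5.10, 7.48 and 4.05 RPKM with Ik4056 and 19.3, 12.7, 13.96 and 8.78 RPKM with Ik2709 (log2 -1.04), against 2.98 to 6.21 RPKM in controls. ACTN1 (log2 0.47) was also called higher with Ik4056. The third gene called higher was CTTN, at 1.75, 1.36, 1.14 and 0.615 RPKM with Ik4056 and 0.269, 0.421, 0.472 and 0.540 RPKM with Ik2709. It passed the filter only through the Ik4056 libraries, so this difference is a description. The PARVB call held under every alternative and the other 3 did not: a fit on the compared libraries only left 1 call, and with the replicate block there were 17, 14 higher and 3 lower, beside 22.4%. Ren713 against the empty vector gave 0 calls by limma among members, beside 0% of all gene models, with 1 member (TNS3) at an unadjusted p under 0.05.

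The summed levels of myeloid markers rose with the hairpins. The summed level of the 12 neutrophil markers was 767.1 to 1314 RPKM with Ik4056 and 445.2 to 1173 RPKM with Ik2709, against 34.4 to 114.5 RPKM with Ren713 and 25.6 to 85.6 RPKM with the empty vector. MPO and PRTN3 made up most of it, while S100A8, S100A9 and RETNLG were at 0 in all 16 libraries. The 12 monocyte or macrophage markers summed to 93.8 to 133.8 RPKM with hairpins and 17.0 to 24.7 RPKM with control constructs. MRC1, CD68, CSF1R and CTSS made up most of the sum with hairpins. ADGRE1 went the other way, at 0.597 to 3.18 RPKM with hairpins and 1.83 to 7.45 RPKM with control constructs. MS4A7 and C1QA were at 0 in all 16 libraries. The part of these cells in the values of ITGAM, ITGB3 or the other members was not tested.

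Control groups were compared to see how the genes stand at each stage. These comparisons share their control libraries with the deletion comparisons and with each other, and do not separate stage from depth or library set. Pre-B cells are wild type, while the pro-B, Rag2-null and c-Kit-high controls carry a floxed Ikzf1 allele and Cre. ITGB1 led the integrin genes of pro-B, Rag2-null and c-Kit-high controls or stood next to ITGA4, while in wild-type pre-B libraries ITGB2 led at 86.1 and 93.6 RPKM and ITGB1 was 22.2 and 16.4 RPKM. In the empty-vector pre-pro-B libraries ITGB7 led, at 63.9 to 90.4 RPKM, followed by ITGB1, ITGB2 and ITGAL, whose ranges overlapped between 31.5 and 46.9 RPKM. RPKM divides by gene length, so these levels compare genes.

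Relative to pro-B controls, c-Kit-high controls had 13 genes called higher, beside 27.8% of all gene models, and 10 lower, beside 23%. ITGA4 was 57.5 and 64.6 RPKM in c-Kit-high controls, against 16.2 and 14.2 RPKM in pro-B controls (log2 1.94). PARVB (log2 1.93), ZYX (1.54), ITGA9 (1.54) and TNS1 (1.08) were also higher, and CTTN (-1.40), PARVA (-1.36), TLN2 (-1.27), BCAR1 (-1.18) and PTK2 (-1.10) lower. ITGAM was higher (log2 3.39), beside a neutrophil list of 115.7 to 713.2 RPKM in c-Kit-high controls and 0.992 to 1.22 RPKM in pro-B controls; its part was not tested. Stromal markers were lower, at 1.04 to 7.98 RPKM against 76.3 to 119.8 RPKM.

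Rag2-null controls had 1 gene called higher than in pro-B controls, beside 10.9%, and 13 lower, beside 20.7%. After median-ratio scaling the split was 3 and 10. ILK was the gene called higher (log2 0.61). CTTN (-1.46), ITGB5 (-1.07), TLN1 (-0.75) and ITGB1 (-0.68) were lower under every alternative, beside a stromal list of 7.63 to 20.5 RPKM in Rag2-null controls and 76.3 to 119.8 RPKM in pro-B controls. The Rag2-null and pro-B deletion effects each start from one of these control levels.

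Pre-B libraries had 11 genes called higher than in c-Kit-high controls, beside 19.2%, and 14 lower, beside 29.8%. Quantile normalization gave a split of 13 and 10 and median-ratio scaling 15 and 10; they moved the median of all gene models by 0.12 and 0.14. ITGB7 was 14.4 and 14.6 RPKM in pre-B libraries, against 2.00 and 0.322 RPKM in c-Kit-high controls (log2 2.96 ± 0.32, n = 2 each, limma adjusted p = 8.79e-06). ITGB3 (log2 2.87), ITGB2 (2.06), ITGA9 (1.95), FLNA (1.31) and ITGAM (1.31) were also higher. The ITGAM call was lost with a pseudocount of 0.1 (limma adjusted p = 0.13) and without c-Kit-high control replicate 1 (limma adjusted p = 0.0501). The neutrophil list was 7992 to 8325 RPKM in pre-B libraries and 115.7 to 713.2 RPKM in c-Kit-high controls, and its part in these values was not tested. ITGA5 was 3.88 and 4.68 RPKM in pre-B libraries, against 38.1 and 37.1 RPKM (log2 -2.87), and PARVB (-2.19), TNS3 (-1.66), ITGB1 (-1.38), LPP (-1.20) and PXN (-1.13) were lower. These 6 stayed called lower under every alternative.

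**Figure D4:**
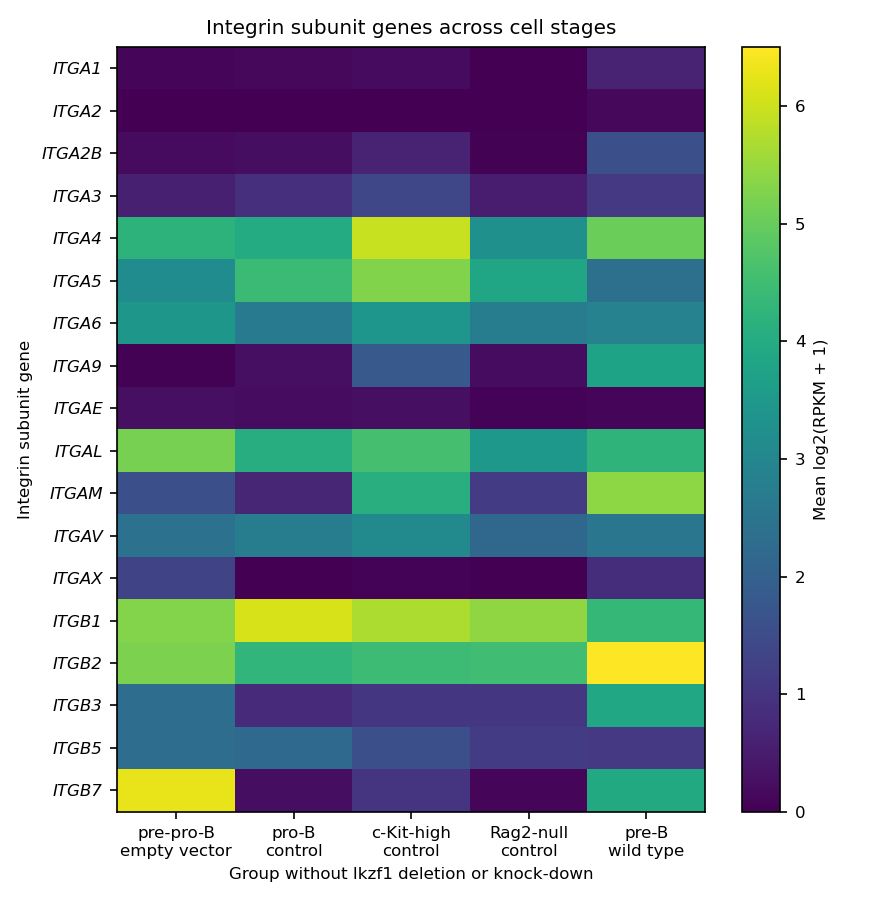
Mean log2(RPKM + 1) of the 18 integrin subunit genes (rows) in 5 control or wild-type groups (columns). The pro-B, Rag2-null and c-Kit-high controls carry a floxed Ikzf1 allele and Cre. ITGB7 is bright in pre-pro-B and pre-B columns alone, ITGA4 is brightest in c-Kit-high controls, and ITGB2 in pre-B cells.

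Genes of the pathway outside the 41 were described from lists of related genes. Of 12 tested integrin ligands and counter-receptors, 9 rose and 0 fell in Rag2-null cells, beside 15.5% and 6.84% of all gene models, with a median log2 of 1.16 against 0.06 over all gene models. In c-Kit-high cells 6 rose and 0 fell, beside 11.6% and 5.6%, in pro-B cells 3 rose and 4 fell, beside 13.5% and 9.89%, and in the knock-down 3 of 8 rose and 0 fell, beside 13.4% and 6.04%. Of 7 tested stromal markers 6 were called higher in Rag2-null cells and 5 lower in pro-B cells (median log2 1.94 and -1.33), and their part in the ligand values was not tested. FN1 (fibronectin) rose by a log2 of 4.12 in Rag2-null cells and 1.44 in c-Kit-high cells, and SPP1 (osteopontin, a ligand of alpha9 and alpha4 integrins) rose too, with log2 differences of 4.38 after pro-B deletion, 3.30 in the c-Kit-high setting and 1.15 in Rag2-null cells. VCAM1 fell in pro-B cells (log2 -1.31). Among the other listed genes of the pathway, picked after their values were seen, SORBS3 (vinexin, a vinculin partner) rose in all 4 comparisons (log2 2.06 in pro-B, 3.17 in c-Kit-high, 4.21 in Rag2-null cells and 1.48 in the knock-down), and DOCK1, which acts with p130Cas on Rac, rose in the 3 deletions.

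The shares of all gene models called higher and lower were 13.5% and 9.89% in pro-B cells, 11.6% and 5.6% in c-Kit-high cells, 15.5% and 6.84% in Rag2-null cells and 13.4% and 6.04% in the knock-down, and the counts of the next 3 lists stand beside these. Of 15 tested inside-out activation genes, 4 were called higher and 3 lower in pro-B cells, 1 and 3 in c-Kit-high cells, 2 and 0 in Rag2-null cells, and 4 and 1 of 14 in the knock-down; the 2 of 15 in Rag2-null cells are near the share of all gene models. RASSF5 (RAPL, a Rap1 effector that acts on alphaL beta2) fell in pro-B (log2 -1.99) and c-Kit-high cells (-0.99). Of 18 actin-binding genes 1 rose and 6 fell in pro-B cells, 2 and 5 in c-Kit-high cells, 4 and 4 in Rag2-null cells and 2 and 5 in the knock-down; EVL, a relative of VASP, fell in the 3 deletions (log2 -2.08 in the pro-B, -1.04 in the c-Kit-high and -0.93 in the Rag2-null deletion). Of 15 other leukocyte adhesion genes, 6 rose and 3 fell in pro-B cells, 5 and 2 in c-Kit-high cells, 6 and 1 in Rag2-null cells, and 7 and 1 of 13 in the knock-down. Of the 8 listed integrin subunits outside the 41, 1 passed the filter in each fit.

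Of the 41 genes, 39 were tested in at least 1 of the 4 comparisons and 33 were called in at least 1, beside 46.5% of all gene models. The other 8 were ITGA2, ITGA2B, ITGAE, ITGAM, ITGAV, ITGAX, ITGB3 and LPP. With the replicate block 4 of these 8 were called in the knock-down, ITGB3 (limma adjusted p = 1e-07), ITGAM (7.5e-05) and LPP (0.00155) as higher and ITGAX (0.0308) as lower. ITGA2, a collagen receptor subunit, was at or below 0.159 RPKM in all 30 libraries and ITGAE at or below 0.455 RPKM. ITGA2B, the platelet subunit, reached 2.03 RPKM in a pre-B library. ITGA1, a collagen receptor subunit, was at 1.63 and 3.26 RPKM in deleted c-Kit-high libraries, against 0.198 and 0.0719 RPKM in controls, and below 1 RPKM in the other 26 libraries. ITGA1 passed the filter through the deleted c-Kit-high libraries alone, so this difference (log2 1.56) is a description.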

How the data were processed

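Normalized expression values (RPKM per gene model) were used as the authors deposited them, with 30 libraries in tables of 21025 gene models. Per the labels' protocols the libraries were strand-specific and single-end. Whether strand was used in counting is not given in these sources. The submitters' processing notes name TopHat 1.4.1, HTSeq 0.5.3, DESeq 1.8.3 and build mm9, with no roles. Depth is not in the files and was estimated from the step between low values, so it is approximate; no counts were used. The members and gene lists were chosen with earlier results of these data known.

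Values were taken as log2(RPKM + 1), and gene models with at least 1 RPKM in 2 libraries were kept. The 14 pro-B and pre-B libraries (11937 gene models) and the 16 knock-down libraries (10744 gene models) had a fit each in limma 3.58.1 (R 4.3.3; trend and robust empirical Bayes; two-sided), with p-values adjusted over all gene models by Benjamini-Hochberg. A fold change on this scale understates the change of low genes. Groups came from titles and genotype labels. The procedure was also run on simulated data, but the outcome is not reported here and no result rests on it. Library numbers in the labels fall into 4 runs of consecutive knock-down libraries, each holding 1 library of every construct. Same-run libraries deviated together in 24 of 24 pairs (lowest r 0.52, median 0.775, against -0.236 between runs), so the runs pair these libraries, and the fit with a replicate block was the alternative. Knock-down counts, p-values and calls are from the fit without the block unless it is named, so they leave this pairing out. Further alternatives were the pseudocount (0.1 and 0.5), the filter, quantile and median-ratio scaling, plain empirical Bayes, the libraries in the fit, and each library left out. Values per library are printed for up to 15 members called in several of the 4 comparisons and for their integrin partners, and for further members called in a comparison; members outside this rule were picked after their values were seen. Tables were handled in Python 3.11.15 (pandas 2.3.3, numpy 2.4.6), and figures drawn with matplotlib 3.10.9. Promoter windows are from RefSeq (GRCm38.p6), a build other than that of the values. Some markers and 1 gene list are not reported here.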

Additional observations from a re-analysis of the deposited data

Results flagged for a closer look

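Differences between deletion effects were tested in the fit itself. The Rag2-null effect exceeded the pro-B effect by a log2 of 2.63 at ITGAL, 2.56 at ITGA3, 2.47 at ZYX, 2.04 at ITGB5, 1.63 at PXN, 1.5 at ITGA5, 1.34 at CTTN, 1.21 at ICAM1, 1.17 at PARVA, 1.02 at VCL, 1.01 at BCAR1, 0.78 at ACTN1, 0.75 at PARVG and 0.69 at TLN1, and was lower by -1.03 at PTK2B. The c-Kit-high effect exceeded the pro-B effect by a log2 of 2.18 at CTTN, 1.77 at ICAM1, 1.57 at TNS1, 1.36 at PARVA, 1.28 at ITGA1 and 0.68 at ITGB2, and was lower by -1.07 at ITGA9. ITGA1 passed the filter only through the deleted c-Kit-high libraries, so its difference is a description. Both sets use the same pro-B libraries, and neither separates setting from library set or depth.

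Of 80 groups of 4 knock-down libraries tested for a library far from the others (by Dixon's ratio of gap to range), 3 had one; chance flags about 1 in 20. With the empty vector, CTTN was 0.662 RPKM in 1 library, against 0.354 to 0.386 RPKM in the others. ITGB2 was 39.1 RPKM in 1 Ren713 library, against 34.7 to 35.0 RPKM, and 51.0 RPKM in 1 empty-vector library, against 31.5 to 32.9 RPKM. Both ITGB2 libraries belong to the fourth run. ITGB2 was not called in the knock-down.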

How the results depend on the processing

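The count of called members stayed within 1.5 times its value in each comparison under every alternative run, except where named here. For the pro-B deletion, 17 calls became 11 to 13 without 1 library. The replicate block raised the knock-down calls to 24 from 14 and the Ik4056 against Ik2709 calls to 17 from 4; between the hairpins it was 1 when the fit held the compared libraries only, and 1 to 5 without 1 library. The c-Kit-high against pro-B effect had 4 calls with a filter of 3 RPKM, 4 after quantile normalization and 3 to 8 without 1 library, beside 7. Rag2-null against pro-B controls had 8 calls after quantile normalization, 9 with the compared libraries only and 8 to 15 without 1 library, beside 14. The replicate block takes in the pairing by run, which the main knock-down fit leaves out. The causes of the other shifts were not tested. Quantile normalization moved the median of all gene models by -0.13 in the Rag2-null deletion, where the split was 18 higher and 4 lower, beside 20 and 4. No called member changed direction under any alternative run. The block ended no call of the knock-down or between hairpins. With 2 libraries a group, small differences are not resolved, and low genes are imprecise at 2.3 M reads.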
